A study of Drosophila melanogaster with 16 samples.

Results

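The genes described here carry out DNA replication and mitosis in the Drosophila embryo. A list of 47 such genes was given, 16 of replication and 31 of mitosis, and a gene was used where the array's annotation gives it a probeset of its own. That held for 35 genes, 12 of replication and 23 of mitosis, and all 35 passed the filter on low values and were among the 8852 genes tested. The other 12 (Mcm7, Orc6, geminin, RnrS, CycA, Cdk1, stg, polo, aurA, BubR1, Klp3A and pav) were not analysed here. For fzy, 3 probesets were present and the one with the largest spread over arrays was used. The other 2 stayed between 2.29 and 2.82 on every array, near the lowest value in the data, 2.29.

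RNA was measured in naïve embryos, whose mothers carried the mutations bcd E1 and nos L7 and an allele of tsl. These remove anterior, posterior and terminal patterning, and the authors describe the embryos as a simple epithelium without pattern. All 8 genotypes were naïve embryos. For those with a transgene, the mothers also carried da-Gal4, a driver active throughout the embryo, and the UAS transgene came from the father. WT embryos expressed no transgene, and the paper does not state whether their mothers carried da-Gal4. Wg++ embryos overexpressed Wingless, the main canonical Wnt ligand of the fly, and arm∆N embryos expressed a stabilised Armadillo, the fly β-catenin. DisArmed is a form of Armadillo that cannot activate transcription. tcf∆N-long is the DNA-binding partner TCF without its β-catenin binding domain, tcf∆N-short is a shorter form of the same protein, and arm∆N-tcf∆N-short combines 2 of these transgenes. Otk++ embryos overexpressed Off-track, a receptor placed in noncanonical Wnt signalling. Each genotype had 2 arrays, labelled as biological replicates, with RNA of about 50 pooled embryos aged 4 to 16 h per array. A transgene driven everywhere in pooled whole embryos reports no single tissue or stage.

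Before S phase, the origin recognition complex and the loading factor Cdt1, which the fly gene dup encodes, place the Mcm helicase on DNA, and S-phase cyclin and kinase then fire those origins. Entry into mitosis needs Cdk1 with a mitotic cyclin, released by a Cdc25 phosphatase. Condensin then compacts the chromosomes, the spindle checkpoint holds back the anaphase-promoting complex until kinetochores are attached, and separase cuts the sister chromatids apart once its inhibitor, securin, is destroyed. In the fly, the mother loads the egg with RNA for many of these proteins, which drive the first rapid nuclear cycles, and later divisions depend on the embryo's own transcription.

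On the Release 6 assembly, the 4 genes that mark the lists lie at chr2R:15376619-15380988 (dup), chrX:6674387-6677176 (Mcm6), chr2R:17861273-17865963 (thr) and chr2L:16733617-16738388 (glu). Values are log2 intensities after GC-RMA, so a difference of 1 is a factor of 2 in signal. Arrays of 1 genotype correlated at r = 0.954 to 0.988 over the 8852 genes tested, against 0.828 to 0.982 for arrays of different genotypes. As a check of the labels, the wg probeset read 10.09 ± 0.08 (SD, n = 2) in Wg++ and 6.41 ± 0.02 in WT, and pan, which encodes TCF, was 5.67 to 6.12 above WT in the 3 tcf∆N genotypes. The otk probeset read 7.65 ± 0.04 in Otk++ and 7.01 ± 0.45 in WT. No probeset for arm was analysed here, so arm∆N and DisArmed had no such check. A gene was called where limma gave a fold change above 1.5 in either direction at a false discovery rate under 10% over all genes tested. With 2 arrays per genotype the p-values rest on a spread pooled over all 16 arrays. In whole embryos, fewer cells of a type and less RNA per cell cannot be told apart. The 7 comparisons with WT share its 2 arrays, and the comparisons with arm∆N share those of arm∆N.

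The mitosis members differed most from WT in Wg++. Against WT, 14 of 23 mitosis members rose and none fell, while 2 of 12 replication members rose and none fell. Over all genes tested, 18.8% were called higher and 22.1% lower in this comparison. The replication share called higher, 16.7%, was thus below that of all genes. The members were chosen with earlier results of these data known, so these shares are descriptions and no independent test. The median log2 fold change was 1.25 over the mitosis members and 0.17 over the replication members, against -0.11 over all genes. For replication the median against WT was larger in size in arm∆N (-0.44) and tcf∆N-short (0.44) than in Wg++. Among the 4691 genes with a mean level above 6, 24.3% were called higher. Members called higher came from every stage of mitosis that the list covers except the kinetochore.

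**Figure D1:**
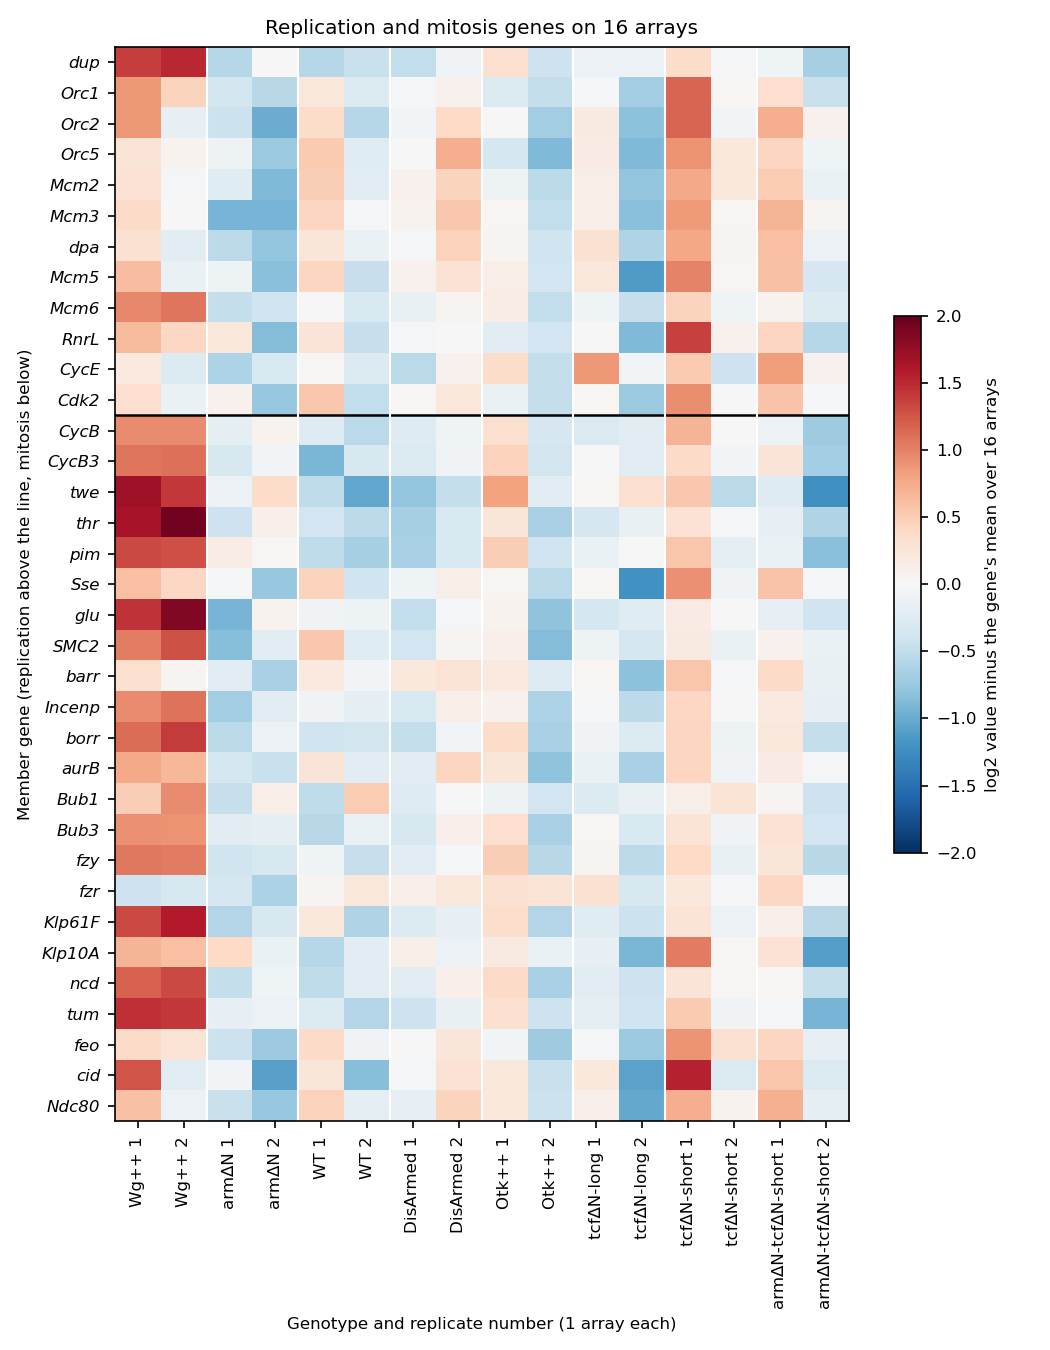
Log2 value of each of the 35 members (rows, replication above the black line and mitosis below) on each of the 16 arrays (columns, by genotype and replicate number), shown as the difference from that gene's mean over the 16 arrays. The dark red block in the 2 Wg++ columns covers dup, Mcm6 and most mitosis genes, and tcf∆N-short replicate 1 is the reddest column among the replication genes.

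All 3 measured genes for mitotic cyclins and Cdc25 rose in Wg++, while CycA, Cdk1 and stg were not analysed. The phosphatase gene twe, one of the fly's Cdc25 genes, read 8.34 and 8.06 in Wg++, 6.14 and 5.60 in WT and 6.53 and 7.01 in arm∆N, and the other 10 arrays lay between 5.42 and 7.44. Both Wg++ arrays were above all 14 others, with a log2 fold change against WT of 2.33 (SE 0.45, adjusted p = 0.00333). CycB3, which encodes a mitotic cyclin that acts in anaphase, read 12.33 and 12.36 in Wg++, 10.34 and 10.94 in WT and 10.94 and 11.20 in arm∆N, with 10.57 to 11.72 elsewhere. The Wg++ arrays again did not overlap the others, and the log2 fold change was 1.70 (SE 0.35, adjusted p = 0.00453). CycB, the cyclin partner of Cdk1 at entry into mitosis, rose by 1.35 (SE 0.29, adjusted p = 0.00545).

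Of the 3 genes for the release of sister chromatids, the 2 regulators of separase rose. The gene thr encodes the regulatory subunit of fly separase and read 9.51 and 9.78 in Wg++, 7.47 and 7.33 in WT and 7.45 and 7.96 in arm∆N, with 7.20 to 8.15 on the other 10 arrays. The lower Wg++ array stood 1.36 above the highest of the other 14, the widest such gap of any member, and the log2 fold change against WT was 2.24 (SE 0.30, adjusted p = 0.000915). Securin, the separase inhibitor encoded by pim, read 10.90 and 10.87 in Wg++, 9.08 and 8.92 in WT, 9.73 and 9.60 in arm∆N, and 8.75 to 10.14 elsewhere. Its log2 fold change was 1.89 (SE 0.33, adjusted p = 0.00227), again with no overlap between Wg++ and the rest. Sse, which encodes the catalytic part of separase, read 5.82 and 5.63 against 5.69 and 4.83, so the 2 genotypes overlapped (0.47, SE 0.48, adjusted p = 0.481).

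Condensin genes divided in the same manner. The gene glu encodes the SMC4 subunit and read 9.39 and 9.80 in Wg++, 7.87 and 7.84 in WT and 7.02 and 8.02 in arm∆N, with 7.15 to 8.11 on the other arrays. Its 2 Wg++ arrays lay at least 1.28 above every other array, and the log2 fold change was 1.74 (SE 0.35, adjusted p = 0.00396). SMC2, its partner in the ring, read 8.99 and 9.25 in Wg++, 8.51 and 7.73 in WT and 7.12 and 7.74 in arm∆N, with 7.11 to 8.15 elsewhere. SMC2 passed the test by less (0.99, SE 0.35, adjusted p = 0.0483), and it no longer passed when either Wg++ array or WT replicate 2 was left out, or when only the WT and Wg++ arrays were fitted. The kleisin subunit gene barr gave 8.13 and 7.87 in Wg++ against 8.01 and 7.76 in WT and was not called (0.12, SE 0.32).

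Among spindle and cytokinesis genes, Klp61F, the kinesin-5 motor that pushes spindle poles apart, read 9.47 and 9.73 in Wg++, 8.36 and 7.54 in WT and 7.56 and 7.82 in arm∆N, with 7.56 to 8.50 elsewhere (1.65, SE 0.35, adjusted p = 0.00535). tum, the RhoGAP of the centralspindlin complex that positions the cleavage furrow, read 10.43 and 10.39 in Wg++, 8.69 and 8.39 in WT and 8.81 and 8.85 in arm∆N, with 8.04 to 9.49 elsewhere (1.88, SE 0.32, adjusted p = 0.00216). In both genes the Wg++ arrays lay above all others, as they did in ncd, a minus-end directed kinesin that focuses spindle poles (1.62, SE 0.31). Klp10A, a kinesin that shortens microtubules, had a log2 fold change of 1.03 (SE 0.45) and feo, which bundles the central spindle, one of 0.17 (SE 0.33), and neither was called.

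In the chromosomal passenger complex, which corrects faulty spindle attachments, the scaffold gene Incenp rose by 1.14 (SE 0.29) and borr, for Borealin, by 1.64 (SE 0.35), while the kinase gene aurB had a value of 0.70 (SE 0.35, adjusted p = 0.147). Both aurB arrays of Wg++, 7.98 and 7.88, were nevertheless above the other 14, of which the highest was 7.65. Of the checkpoint genes, Bub3 rose by 1.25 (SE 0.33) and Bub1 gave 0.72 (SE 0.33, adjusted p = 0.115). Both activators of the anaphase-promoting complex were measured. The mitotic one, fzy, rose by 1.32 (SE 0.37), and fzr, which acts at mitotic exit and in the cell cycles without division, read 8.13 and 8.22 in Wg++ against 8.59 and 8.76 in WT (-0.50, SE 0.23, adjusted p = 0.113). It had the lowest fold change of the 35 members. The kinetochore genes cid, the centromeric histone, and Ndc80, which grips microtubules, had values of 0.82 (SE 0.71) and 0.10 (SE 0.47), and their Wg++ and WT arrays overlapped.

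Of the 12 replication members, dup and Mcm6 were called in Wg++ against WT. The loading factor gene dup read 11.07 and 11.19 in Wg++, 9.11 and 9.25 in WT and 9.12 and 9.69 in arm∆N, and the other 10 arrays lay between 9.02 and 10.06. The Wg++ arrays stood at least 1.01 above all 14 others, with a log2 fold change of 1.96 (SE 0.30, adjusted p = 0.00138). The helicase subunit gene Mcm6 read 10.69 and 10.81 in Wg++, 9.73 and 9.43 in WT and 9.26 and 9.34 in arm∆N, with 9.24 to 10.18 elsewhere. Its Wg++ arrays were also above all others, by at least 0.51, and the log2 fold change was 1.18 (SE 0.26, adjusted p = 0.0063).

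The other 4 measured subunits of the same helicase were not called. Mcm3 had 7.71 and 7.33 in Wg++ and 7.76 and 7.31 in WT, and the ranges coincided almost completely (-0.02, SE 0.39). For Mcm2 and dpa, which encodes Mcm4, the log2 fold changes were -0.03 (SE 0.39) and -0.02 (SE 0.38), and Mcm5 gave 0.26 (SE 0.54). The largest value among the uncalled replication members was that of the origin recognition gene Orc1, 0.69 (SE 0.39, adjusted p = 0.19), with both Wg++ arrays above both of WT. For these uncalled members a difference was not detectable at this precision, since their standard errors were 0.38 to 0.54. The other origin genes, Orc2 and Orc5, gave 0.45 (SE 0.54) and 0.03 (SE 0.43). RnrL, the large subunit of ribonucleotide reductase, had a value of 0.64 (SE 0.51), also without overlap between the genotypes, CycE 0.08 (SE 0.44) and its kinase Cdk2 0.09 (SE 0.45). The replication median rose from 0.17 to 0.66 without WT replicate 1 and was -0.13 without Wg++ replicate 1, whereas dup and Mcm6 stayed called whichever of these arrays was left out.

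**Figure D2:**
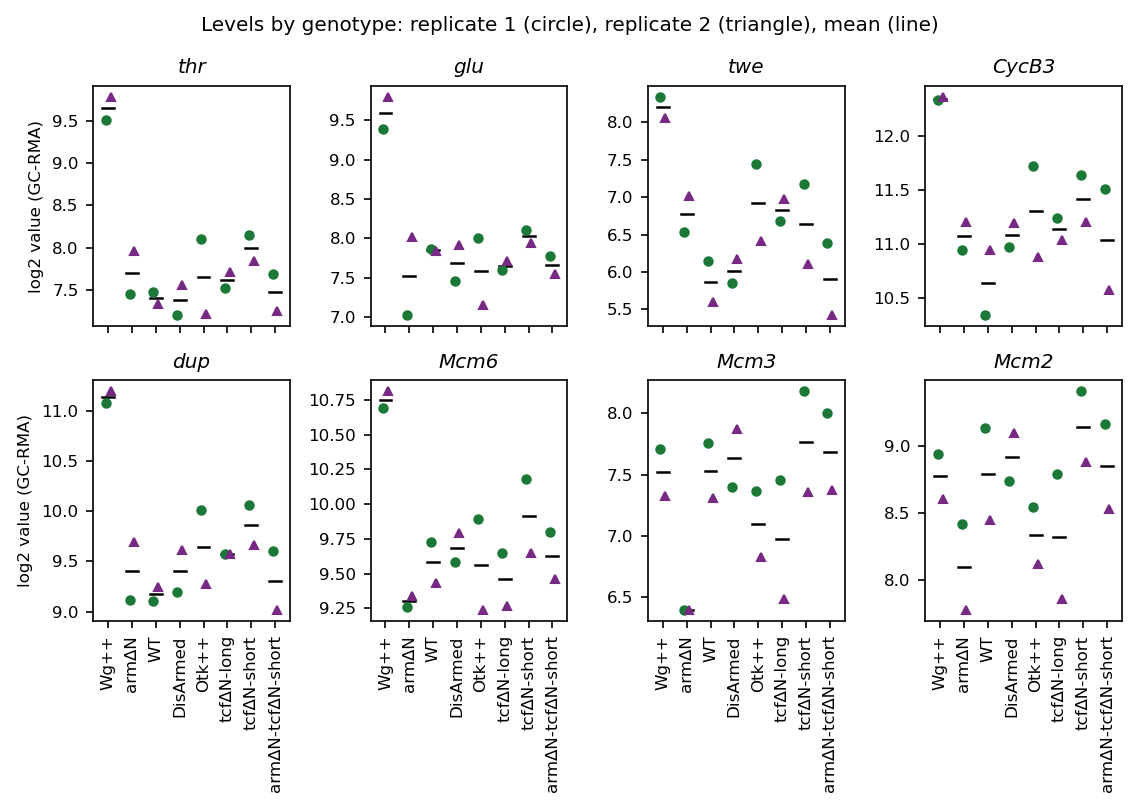
Log2 value on each array (vertical axes, a separate range per gene) for 4 mitosis genes (upper row) and 4 replication genes (lower row) in the 8 genotypes, with replicate 1 as a circle, replicate 2 as a triangle and the mean of the 2 as a line. In thr, glu, twe, CycB3, dup and Mcm6 both Wg++ arrays lie above the other 14, in Mcm3 both arm∆N arrays lie below the rest, and in Mcm2 Wg++ lies among the others.

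The comparison of Wg++ with arm∆N sets the ligand against activated Armadillo, a component further down the canonical pathway. All 35 members had a higher mean in Wg++, and 17 of 23 mitosis and 4 of 12 replication members were called higher, with none called lower. Over all genes tested, 18.7% were called higher and 46.9% had a higher mean, and among genes with a mean level above 6, 25.1% were called higher. The medians were 1.22 over mitosis members and 0.78 over replication members, against -0.04 over all genes. The largest value was that of glu (2.07, SE 0.35, adjusted p = 0.00396), followed by thr (1.94, SE 0.30) and Klp61F (1.91, SE 0.35), and for SMC2 it was 1.69 (SE 0.35, adjusted p = 0.00733). Lists of other RNAs, described further below, also differed between these 2 genotypes. In Wg++, 9 of 10 late cuticle genes were called lower (median -2.24) and 9 of 18 maternal genes higher (median 1.51). Lower calls were 3 of 7 muscle, 2 of 6 neuron, 1 of 9 neuroblast and 0 of 7 ectoderm genes, against 18.3% of all genes. The part of these differences in the values of the members was not tested.

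Against arm∆N the calls among replication genes were dup (1.73, SE 0.30, adjusted p = 0.00416), Mcm6 (1.45, SE 0.26, adjusted p = 0.00445), Mcm3 (1.12, SE 0.39, adjusted p = 0.0497) and Orc1 (1.12, SE 0.39, adjusted p = 0.0498). Orc1 read 8.14 and 7.72 in Wg++, 6.92 and 6.72 in arm∆N and 7.51 and 6.99 in WT, and among the other 10 arrays it ranged from 6.58 to 8.44, so that Wg++ did not stand apart from all genotypes. In the mitosis list, aurB (1.11, SE 0.35), feo (0.91, SE 0.33) and Bub1 (0.88, SE 0.33) were called, which they were not against WT. The difference between the 2 comparisons is that of arm∆N and WT itself, and in that comparison none of aurB, feo and Bub1 was called. The number called rested partly on single arrays: it was 12 in place of 21 without arm∆N replicate 1 and 13 without Wg++ replicate 1. Mcm3 and Orc1 were not called in either of those fits.

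**Figure D3:**
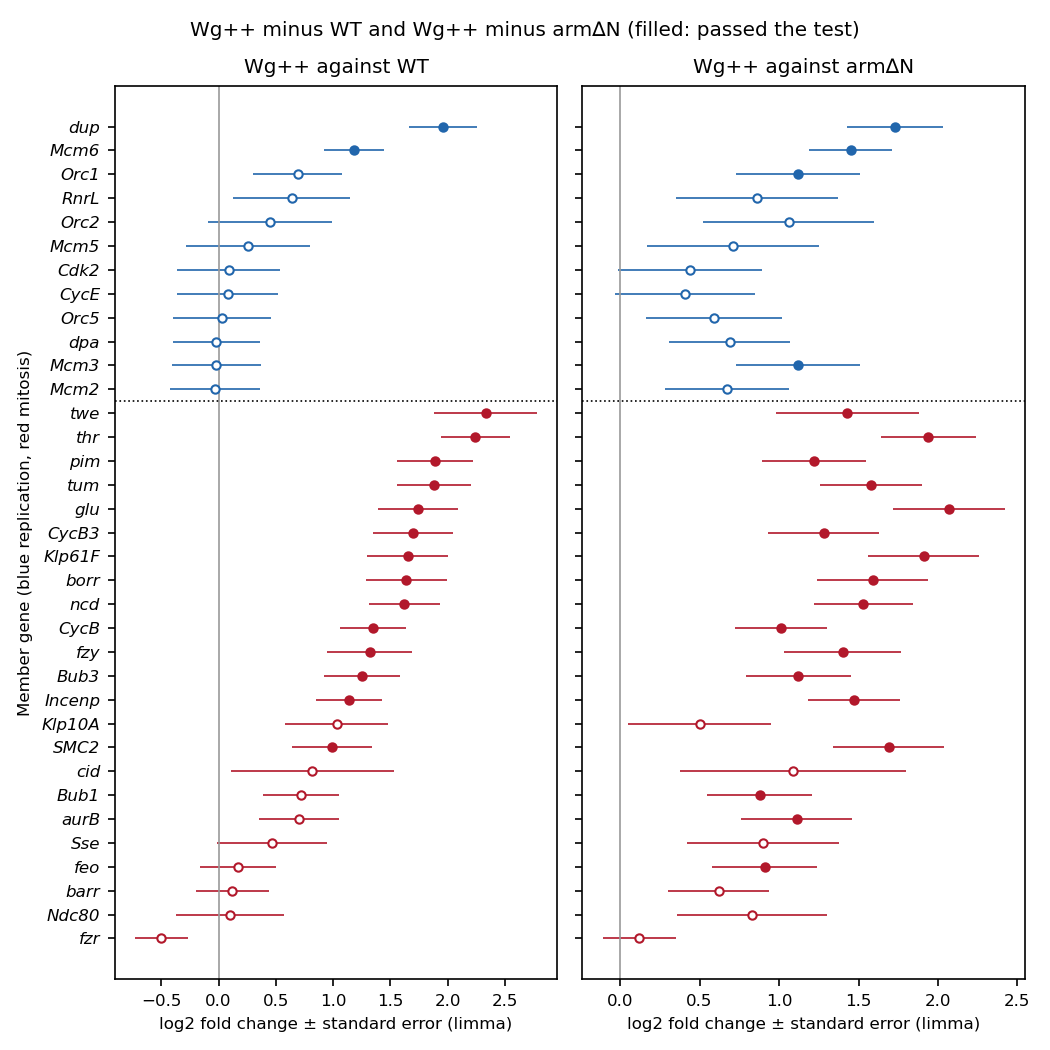
Log2 fold change of each member with its standard error from limma (horizontal axes) in Wg++ against WT (left) and Wg++ against arm∆N (right), replication in blue and mitosis in red, ordered by the left panel within each list. Filled points passed the test, 2 of 12 and 14 of 23 on the left and 4 of 12 and 17 of 23 on the right, and every point on the right lies above 0.

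arm∆N itself gave few calls among these genes. Against WT, 1 of 35 members was called lower and none higher, where 11.6% of all genes were called lower and 7.9% higher. An unadjusted p under 0.05 was found for 3 of the 35 and for 2608 of the 8852 genes tested. The called gene was Mcm3, which read 6.40 on both arm∆N arrays against 7.76 and 7.31 in WT, and 6.49 to 8.18 on the other 10 arrays outside Wg++. Both arm∆N arrays were thus the lowest of the 16, and the log2 fold change was -1.13 (SE 0.39, adjusted p = 0.0763), a call that was lost without WT replicate 1 or either arm∆N array. The other Mcm genes had values from -0.70 to -0.27 and the 3 origin recognition genes from -0.61 to -0.43. Of the 12 replication members, 11 had a lower mean in arm∆N than in WT and 1 a higher mean, where 43.5% of all genes had a higher mean. Their median was -0.44, against -0.08 over all genes. In the order of the 8 genotype means, arm∆N was lowest for 8 of 12 replication and 11 of 23 mitosis members, against 18.3% of all genes. Condensin genes lay between -0.70 and -0.34, while twe (0.89, SE 0.45) and pim (0.67, SE 0.33) lay on the other side of 0, none of them called.

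With tcf∆N-short expressed alongside arm∆N, Mcm3 read 8.0 and 7.38, and its arrays overlapped those of WT. Against arm∆N alone this was a log2 fold change of 1.29 (SE 0.39, adjusted p = 0.0702), and it was the single call among 35 members, with 6.26% of all genes called higher and 5.35% lower. Unadjusted p was under 0.05 for 3 members and for 1971 of the 8852 genes tested. The call was lost without either arm∆N array or without arm∆N-tcf∆N-short replicate 1. Against WT, no member was called in arm∆N-tcf∆N-short by limma, where 1.71% of all genes were called higher and 1.47% lower. None had an unadjusted p under 0.05, beside 939 of the 8852 genes tested, and fold changes ran from -0.19 to 0.58.

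The median fold changes of the replication genes against WT had opposite signs in the 2 forms of TCF without β-catenin binding, and no member was called. The array medians of tcf∆N-long, 7.95 and 6.96, lay above and below both of WT, 7.85 and 7.40. No replication member had both tcf∆N-long arrays below both of WT, against 30.8% of all genes. In tcf∆N-short all 12 replication members and 21 of 23 mitosis members had a higher mean than WT, as did 50.2% of all genes. The medians were 0.44 in both lists and 0.00 over all genes. None of the 35 was called by limma, with 2.51% of all genes called higher and 5.2% lower. At an unadjusted p under 0.05 there were 4 of the 35 (CycB, CycB3, pim and dup, 0.68 to 0.78), beside 1699 of the 8852 genes tested. In tcf∆N-long the medians were -0.32 for replication and -0.14 for mitosis. There limma called no member, where 1.48% of all genes were called higher and 2.25% lower. It gave none an unadjusted p under 0.05, beside 1539 of the 8852 genes tested. Compared directly, 33 of 35 members had a higher mean in tcf∆N-short than in tcf∆N-long, as did 57.5% of all genes, and the medians were 0.82 for replication and 0.41 for mitosis. No member passed the test (lowest adjusted p = 0.205, in feo), where 1.08% of all genes were called higher and 2.11% lower. An unadjusted p under 0.05 was found for 4 members and for 1240 of the 8852 genes tested. With the replicate number fitted as a block, some members were called higher, as given in the closing section, beside 4.02% of all genes. Without tcf∆N-short replicate 2, 1 member was called higher in each of these comparisons of tcf∆N-short.

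The 2 tcf∆N-short arrays were unequal in these genes. For 11 of 12 replication and 14 of 23 mitosis members, tcf∆N-short replicate 1 was the highest of the 14 arrays outside Wg++, which held for 15.9% of all genes. Its replication median was 8.46 and that of tcf∆N-short replicate 2 was 7.56, and WT gave 7.85 and 7.40. A list of maternal RNAs also had its highest median on that array, 8.61. The part of tcf∆N-short replicate 1 in the medians of this genotype was not tested. Both tcf∆N-short arrays lay above both WT arrays in 1 of 12 replication and 11 of 23 mitosis members, against 17.6% of all genes. They lay above both tcf∆N-long arrays in 6 of 12 and 11 of 23, against 26% of all genes.

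No member was called in DisArmed or Otk++. In DisArmed limma gave none of the 35 an unadjusted p under 0.05, beside 667 of the 8852 genes tested. The values ran from -0.32 to 0.44, and 0.237% of all genes were called higher and 0.362% lower. In Otk++ 1 member had an unadjusted p under 0.05 (twe, 1.05, SE 0.45, adjusted p = 0.275), beside 1484 of the 8852 genes tested. Over all genes 0.124% were called higher and 0.203% lower. The twe arrays of Otk++, 7.44 and 6.41, were above those of WT but 1.03 apart. Medians in Otk++ were -0.23 for replication and 0.18 for mitosis.

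A test over all 8 genotypes at once, at a false discovery rate of 1%, called dup (adjusted p = 0.00926) and thr (adjusted p = 0.00387), 2 of 35 members, where 12.3% of all genes were called. By position alone, both Wg++ arrays were above the other 14 for 2 of 12 replication and 15 of 23 mitosis members, against 17% of all genes. Wg++ had the highest of the 8 means in 3 of 12 and 18 of 23 members (25.6% of all genes), and tcf∆N-short had it in 8 of 12 replication members (10.8% of all genes). The spread between the 2 arrays of a genotype was wider in the members than in genes at large: the median over members of the mean SD was 0.43 for replication and 0.31 for mitosis, against 0.24 over all genes.

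Much of that spread was shared between members. Replicate 1 exceeded replicate 2 for all 12 replication members in tcf∆N-short, tcf∆N-long, Otk++ and arm∆N-tcf∆N-short, by medians of 0.53 to 0.92, and fell below it for all 12 in DisArmed (median -0.38). For mitosis members it was higher in 23 of 23 in Otk++ (median 0.84) and in arm∆N-tcf∆N-short (0.62) and in 1 of 23 in DisArmed. Over all genes these medians were between -0.01 and 0.07. The median correlation between members over the 16 arrays was 0.81 among replication genes, 0.68 among mitosis genes and 0.49 between the lists. These correlations are descriptions, since arrays in pairs share a genotype.

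The wider set of pathway genes, listed by function, was measured for 34 of 38 further replication genes and 43 of 58 further mitosis genes. In Wg++ against WT, 7 of 34 replication genes rose and 1 fell (median 0.52), and 14 of 43 mitosis genes rose and 1 fell (median 0.50). The shares called higher were 20.6% and 32.6%, beside 18.8% of all genes and 24.3% of genes with a mean above 6. The replication share was thus near that of all genes. Of all genes, 22.1% were called lower. The replication genes with the lowest adjusted p were Mcm10, a factor that activates the loaded helicase (9.08 ± 0.06 against 6.99 ± 0.38, SD, n = 2, log2 fold change 2.09), the large subunit gene of the factor that assembles chromatin behind the fork (1.96), and chif, the partner of the Cdc7 kinase that fires origins (1.09). E2f2, a repressor of cell cycle genes, fell by 0.69 (adjusted p = 0.0261), and Dp, the partner of the E2F proteins, and the loading factor Cdc6 rose by 1.21 and 1.17.

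Among further mitosis genes, gwl, the Greatwall kinase that keeps mitotic phosphorylation in place, read 9.04 ± 0.01 in Wg++ and 6.61 ± 0.22 in WT (2.43, SE 0.34, adjusted p = 0.00107). CycD, a G1 cyclin, rose by 1.96, Cdc16 of the anaphase-promoting complex by 1.55, asl, which builds centrioles, by 1.46, Mad1 of the spindle checkpoint by 1.27, and Spc25 of the kinetochore by 1.49. The gene that fell was Cks85A, which encodes a small binding partner of Cdk proteins (-1.01). Against arm∆N, 11 of 34 and 21 of 43 rose in Wg++ and none fell, where 18.7% of all genes were called higher and 18.3% lower. In arm∆N against WT, 2 of 34 were called lower (E2f2 and Rbf, the fly retinoblastoma protein) and 5 of 43 (Cdc23, Cdc27, shtd, ida and Cks85A), and none was called higher. These are 5.88% and 11.6% of the lists, no more than the 11.6% of all genes called lower. Cdc23, Cdc27, shtd and ida encode parts of the anaphase-promoting complex, of which Cdc16 (0.04, SE 0.33) and mr (-0.05, SE 0.31) were not called. In tcf∆N-short against tcf∆N-long, Cdc23 (1.09, SE 0.29) and Cdc27 (0.97, SE 0.18) were called higher, 2 of 43 genes beside 1.08% of all genes.

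Lists of other RNAs were read in Wg++ against WT, in which 18.8% of all genes were called higher and 22.1% lower. Of 18 measured genes for RNAs that the mother places in the egg and germ plasm, 9 rose and 1 fell in Wg++ against WT, with a median of 1.81 and values of 4.24 (SE 0.73) for bcd and 3.64 (SE 1.13) for osk. The median of this list per array was 8.11 and 7.64 in Wg++, 7.05 and 5.76 in WT, 8.61 and 6.75 in tcf∆N-short and 5.39 to 7.48 on the other 10 arrays. Of 10 genes for late cuticle, 6 fell and none rose, with a median of -1.88, and TwdlF fell by 5.74 (SE 0.57). The median of the cuticle list per array was 7.65 and 7.95 in Wg++ and 8.24 to 10.75 on the other 14. Of 9 neuroblast genes 1 rose and 3 fell. The shares called lower among 6 neuron genes (1 gene), 7 muscle genes (1) and 7 ectoderm genes (1, with 1 higher) were below that of all genes, but each rests on 1 gene. Their medians were -0.23, -0.54 and -0.34, against -0.11 over all genes. Wg++ had the lowest of the 8 means in 4 of 6 neuron, 5 of 7 muscle and 2 of 7 ectoderm genes, against 30.3% of all genes. On tcf∆N-short replicate 1 the maternal and replication medians, 8.61 and 8.46, were the highest of the 16 arrays, and the mitosis median was 8.41, against 9.39 and 9.73 in Wg++. These arrays also differ in genotype. The part of maternal RNA and of embryo age in the values of the replication and mitosis genes was not tested.

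**Figure D4:**
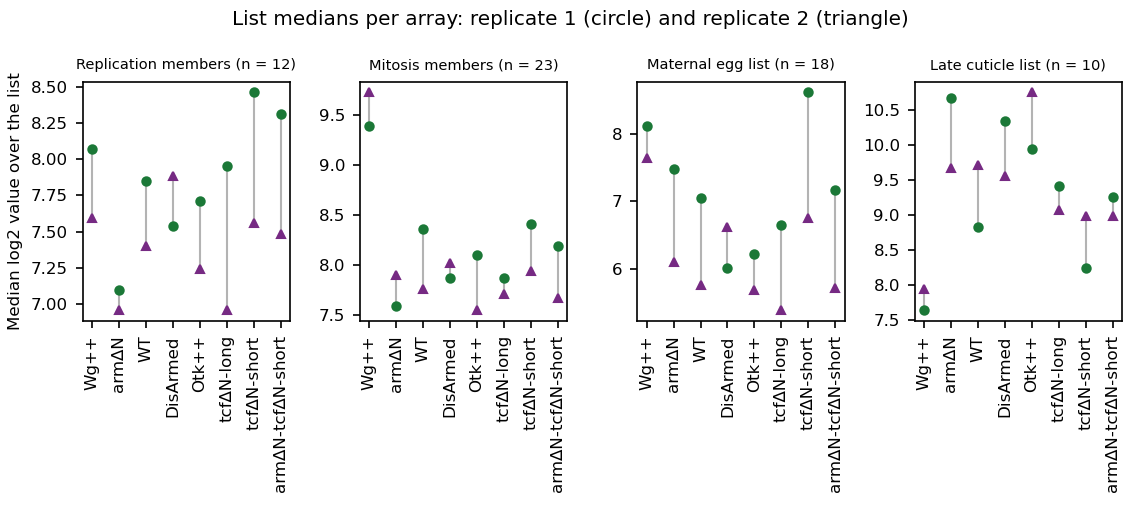
Median log2 value per array (vertical axes, a separate range per panel) over the 12 replication members, the 23 mitosis members, 18 maternal egg and germ plasm genes and 10 late cuticle genes, with replicate 1 as a circle and replicate 2 as a triangle. The 2 Wg++ arrays are the highest of the 16 for mitosis and the lowest for late cuticle, whereas for replication and for the maternal list tcf∆N-short replicate 1 is the highest.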

How the data were processed

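The authors hybridised RNA to Affymetrix Drosophila 2 arrays and deposited log2 values made with GC-RMA, whose version is not given in the sources used here. Of 18952 probesets, 13646 have 1 gene in the platform annotation, 402 several and 4904 none. A gene table for Release 6 plus ISO1 MT held 13543 of the 13646, and 13533 lie on the main chromosomes and cover 11883 genes. One probeset per gene was kept, that with the largest interquartile range over arrays, which left 8852 genes for testing after a filter that asked for a log2 value over 2.5 on 2 or more arrays. The wg and pan probesets, which the annotation leaves unnamed, were named through the study's supplementary table for the label check alone.

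A model with 1 coefficient per genotype was fitted to the 16 arrays with limma 3.58.1 in R 4.3.3 (8 residual and 2.72 prior degrees of freedom), with Benjamini-Hochberg adjustment over all genes. The script was tested on simulated data. Adjusted p-values in the text are those of limma. Array number, 2 per genotype, limits precision. Groups come from the genotype labels. The labels name no batch or day shared by arrays of the same replicate number, so the main fit did not pair samples by it. Deviations of same-numbered arrays correlated at -0.528 to 0.676 over 28 genotype pairs, 19 of them above 0.1 and 5 under -0.1. Whether some genotypes shared a batch was not tested.

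The members and lists were chosen with earlier results of these data known. Values on single arrays are given for dup, thr, glu and Mcm6, for the called members with the largest changes in Wg++ and for up to 2 called members per other comparison. Of further pathway genes, up to 6 per list with the lowest adjusted p in Wg++ against WT are named, and of marker lists those that changed most. Single-array values of Sse, barr, aurB and fzr, and other genes outside this rule, were chosen after their values were seen. Alternatives were other filters, the probeset with the highest mean, trended and robust variances, cyclic loess, a replicate block, fits of 2 groups, a false discovery rate of 5% and leaving out each array. A planned count of promoter motifs was not run.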

Additional observations from a re-analysis of the deposited data

How the results depend on the processing

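No result changed direction while past the test. In Wg++ against WT the number of members called higher was 15 to 20 in place of 16, and none was called lower, under every alternative run. At least 15 of the 16 genes called were shared with every alternative fit. In Wg++ against arm∆N it was 13 without Wg++ replicate 1 and 12 without arm∆N replicate 1 in place of 21, with a range of 12 to 19 over the arrays left out. The median of the replication members without 1 array was -0.13 to 0.66 in Wg++ against WT (0.66 without WT replicate 1) and 0.53 to 1.09 against arm∆N (0.53 without Wg++ replicate 1, 1.09 without arm∆N replicate 1). In arm∆N against WT, in place of 1 member called lower, there were 0 without the expression filter, with only the 2 groups fitted or at a false discovery rate of 5%, 2 with the probeset of the highest mean, and 0 to 1 with 1 array left out. In arm∆N-tcf∆N-short against arm∆N, in place of 1 called higher, there were 0 in the same 3 settings, 2 after cyclic loess, and 0 to 2 with 1 array left out. For tcf∆N-short against WT and against tcf∆N-long the count was 0 to 1 with 1 array left out, being 1 without tcf∆N-short replicate 2. The test over all genotypes called 0 members without the filter, 5 after cyclic loess and 0 to 6 with 1 array left out, in place of 2, with 0 without either Wg++ array and 6 without either Otk++ array. The cause of these changes was not tested.

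The main fit did not pair samples by replicate number. With the replicate number as a block, 20 members were called higher in Wg++ against WT and 30 in Wg++ against arm∆N, 4 lower in arm∆N against WT, 5 higher in tcf∆N-short against tcf∆N-long, 6 higher in arm∆N-tcf∆N-short against arm∆N, and 4 over all genotypes. The block changed no other count. A crossed block for arm∆N-tcf∆N-short against WT, chosen after seeing the data because these numbers correlated at -0.172, called 0 in either direction.

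Cyclic loess moved the median of all genes in Wg++ against WT from -0.11 to 0.00, and the share of calls that were higher from 45.9% to 56.3%. In arm∆N against WT that share went from 40.5% to 51%, and in tcf∆N-long against WT from 39.7% to 55.4%. Signal limits the lowest genes: 2.29 is the smallest value in the data.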
